A study of Mus musculus with 6 samples.

Results

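The AP-4 and AP-3 adaptor complex subunits are 10 of the 19321 genes named on the array, and were read by 11 of its 23473 probes. They were taken by gene symbol from the probe annotation: Ap4e1, Ap4b1, Ap4m1 and Ap4s1 for AP-4, and Ap3b1, Ap3b2, Ap3d1, Ap3m1, Ap3m2 and Ap3s1 for AP-3. Each gene had 1 probe except Ap4e1, which had 2. The set was chosen by the log2 fold change of Ap4e1 between knockdown and control, which had stood out in the same 6 arrays. It was filled up with other subunits of AP-4 and AP-3, though without Ap3s2. The members' values in that comparison are therefore described here and carry no p-value.

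The RNA came from oligodendrocyte precursor cells, the dividing glial progenitors of the central nervous system, prepared from brains of E15.5 mouse embryos of strain Jcl:ICR and kept in FGF2 and PDGF-AA. The Chd7 KD group (3 arrays) received a retrovirus that knocks down Chd7, a chromatin remodeller gene. The Control group (3 arrays) received a control retrovirus. Both groups were thus exposed to a retrovirus and to the same mitogens, and they were harvested 3 days after infection. The labels give neither the knockdown construct nor the share of cells infected, and they do not say whether replicates were separate cultures, so the spread between arrays may be technical.

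Adaptor complexes select membrane proteins and package them into transport vesicles, and each is built from 2 large, 1 medium and 1 small subunit. AP-4 acts at the trans-Golgi network without clathrin and exports cargo such as the autophagy protein ATG9A, and its loss in humans causes a childhood spastic paraplegia. AP-3 carries proteins to lysosomes, lysosome-related organelles and synaptic vesicles. It exists in a ubiquitous form and, in neurons, in a form built with the Ap3b2 and Ap3m2 products.

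The promoters of the 3 members whose signal passed the test over all probes are shown as a description of where their transcripts start. They are RefSeq sequences of mouse build GRCm38.p6, from 250 bases before to 50 bases after the annotated start, and 8 of the 10 members had an entry. Capitals mark each GC box (GGGCGG, or CCGCCC on the other strand) and each CCAAT box (CCAAT, or ATTGG on the other strand), which overlap in the Ap3m1 window.
Ap4e1 promoter (chr2:127008461-127008760, plus strand): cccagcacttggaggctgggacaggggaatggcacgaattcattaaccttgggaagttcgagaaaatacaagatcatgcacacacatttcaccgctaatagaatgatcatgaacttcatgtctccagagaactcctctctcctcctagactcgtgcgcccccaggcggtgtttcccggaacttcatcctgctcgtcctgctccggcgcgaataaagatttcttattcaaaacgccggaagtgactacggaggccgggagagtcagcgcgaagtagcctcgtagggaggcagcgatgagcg
Ap3m1 promoter (chr14:21052393-21052692, minus strand): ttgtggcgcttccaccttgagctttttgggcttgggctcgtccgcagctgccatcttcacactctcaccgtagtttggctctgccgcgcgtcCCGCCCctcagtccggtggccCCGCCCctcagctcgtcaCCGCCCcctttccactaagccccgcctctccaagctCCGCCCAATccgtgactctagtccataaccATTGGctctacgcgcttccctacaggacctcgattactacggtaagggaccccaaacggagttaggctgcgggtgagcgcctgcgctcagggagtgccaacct
Ap3b2 promoter (chr7:81493876-81494175, minus strand): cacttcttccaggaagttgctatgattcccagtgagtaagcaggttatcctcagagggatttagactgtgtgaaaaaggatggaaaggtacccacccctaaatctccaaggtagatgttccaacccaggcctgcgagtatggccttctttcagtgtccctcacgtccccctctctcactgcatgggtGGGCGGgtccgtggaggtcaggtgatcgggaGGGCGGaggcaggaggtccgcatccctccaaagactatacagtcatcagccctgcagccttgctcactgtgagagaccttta
The Ap4e1 window held neither motif, the Ap3m1 window held 4 GC boxes and 2 CCAAT boxes, and the Ap3b2 window held 2 GC boxes and no CCAAT box. Of the 32851 promoter windows of the same length, 35.7% held a GC box and 37.4% a CCAAT box. The E-box CACGTG (7.2% of windows), the cAMP response element TGACGTCA (1.8%) and the TATA box TATAAA (13.6%) were in none of the 8 member windows. The composite element of ATF4 and C/EBP factors TTGCATCA, or TGATGCAA on the other strand (0.9% of windows), was in 1 of the 8, that of Ap4s1.

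Of 20957 probes bright enough to test, 8.85% passed an adjusted p of 0.05 in limma for Chd7 KD against Control, with 4.05% higher and 4.81% lower. Higher probes made up 45.7% of these calls, and 30.3% of the calls in the authors' processed values. With the replicate number as a block 13.6% passed, 6.74% higher and 6.9% lower. All 11 member probes were bright enough, and each was above the limit of detection (the mean of the blank spots plus 2 SD) on all 6 arrays. Of them, 2 were higher in Chd7 KD, 1 was lower and 8 did not pass, and the same 3 passed with the block. Since the members were assembled from this comparison, nothing is read from that count. The median log2 fold change was 0.06 over the 11 member probes and 0.00024 over all tested probes. The groups did not overlap for the same 3 member probes, 2 with Chd7 KD above and 1 with it below. Over all tested probes they did not overlap for 28.9%, with Chd7 KD above for 13.9% and below for 15%.

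The knockdown showed on both Chd7 probes. The log2 intensity of the first was 8.54, 8.44 and 8.48 in Chd7 KD, against 9.44, 9.20 and 9.47 in Control. Signal was at 54.3% of the Control level in Chd7 KD on the first and at 71.5% on the second. Median raw signal per array was 83.4 to 89.4, and the mean of the blank spots was 58.9 to 61.9. Markers of precursor cells were detected on every array for all 7 genes on the array. So were all 10 neuronal, all 7 astrocyte and all 6 myelin probes, so detection does not single out precursor cells. Of 7 precursor probes 5 were lower in Chd7 KD, among them Pdgfra (-1.36), as were 3 of 10 neuronal probes. None of the 7 astrocyte probes passed in limma (2 had an unadjusted p below 0.05). The same held for 5 tested microglial, 2 tested endothelial and 6 myelin probes, of which 0, 0 and 1 had an unadjusted p below 0.05. With the replicate number as a block Olig1 also passed as lower (-0.24, adjusted p = 0.0386 in limma), and Gja1 of the astrocyte list (0.44, adjusted p = 0.0100) and 1 Mog probe of the myelin list (0.24, adjusted p = 0.0121) passed as higher. A smaller number of cells of one kind and less RNA per cell cannot be told apart in such bulk samples.

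Ap4e1, which encodes the large epsilon subunit of AP-4, had the highest Chd7 KD signal relative to Control of all members, on 1 of its 2 probes. On that probe (M300000260) the normalized log2 intensity was 9.46, 9.34 and 9.40 in Chd7 KD replicates 1 to 3, against 7.60, 7.82 and 7.73 in Control replicates 1 to 3. Each Chd7 KD array thus lay far above each Control array. The means were 9.40 ± 0.061 in Chd7 KD and 7.72 ± 0.11 in Control (SD, n = 3 each), a log2 fold change of 1.68 (SE 0.0757), or 3.21-fold. It ranked second of the 20957 tested probes from the top of the fold changes. The raw spot intensity was 763, 586 and 707 in Chd7 KD and 194, 240 and 224 in Control, so the difference was present before any normalization. In the authors' processed values it read 513, 442 and 449 in Chd7 KD against 109, 135 and 126 in Control, a 3.79-fold ratio of means.

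The second Ap4e1 probe (M400013192) did not show this. Its log2 intensity was 6.69, 6.72 and 6.63 in Chd7 KD, against 6.45, 6.64 and 6.75 in Control, and the groups overlapped. The log2 fold change was 0.06 (SE 0.0719). The probe was dim but detected, with raw intensities of 108 to 116 in Chd7 KD and 92.8 to 116 in Control, against detection limits of 62.45 to 63.95 in Chd7 KD and 60.6 to 63.03 in Control. Both probes are annotated to the same RefSeq transcript of Ap4e1, and their positions within it were not used here. In the authors' processed values the second probe read 40, 40 and 35 in Chd7 KD and 27, 37 and 42 in Control.

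**Figure D1:**
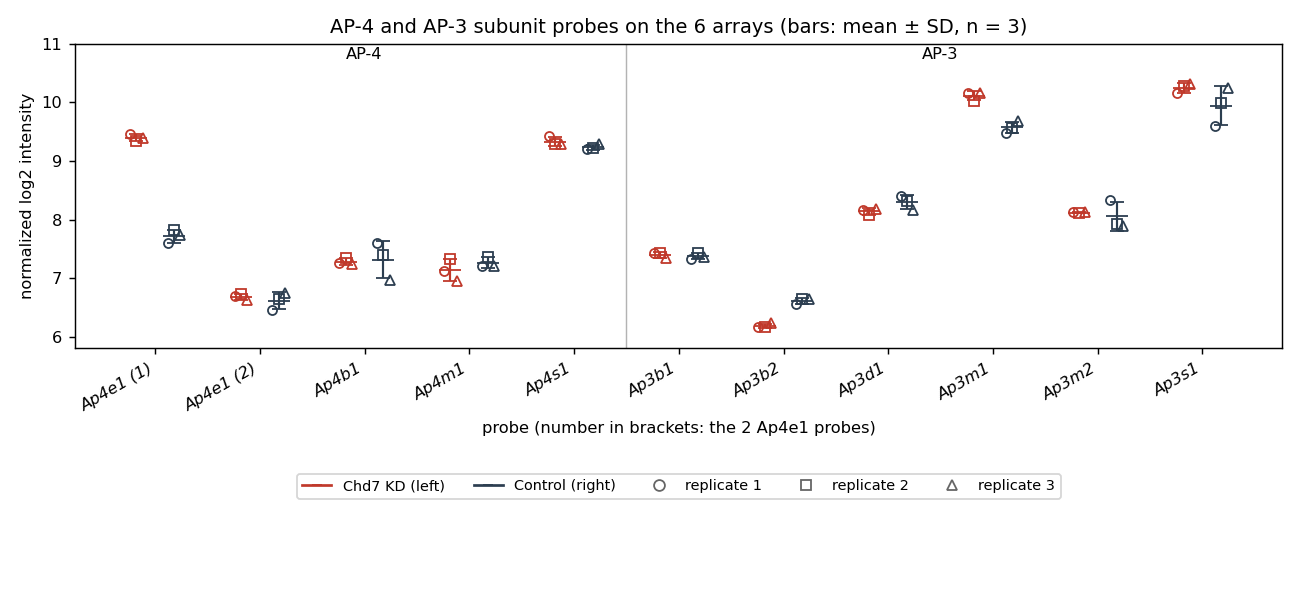
Normalized log2 intensity (vertical axis) of each AP-4 and AP-3 subunit probe (horizontal axis) on the 3 Chd7 KD arrays (red, left) and the 3 Control arrays (dark, right). Symbols are replicates and bars are mean ± SD, and levels of different probes are not comparable. The groups are apart for the first Ap4e1 probe, Ap3b2 and Ap3m1, and overlap for the other 8 probes.

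The gap of 1.62 between the fold changes of the 2 Ap4e1 probes was the widest among 1129 genes with more than 1 tested probe, where the median gap was 0.0713. Only 3 of these genes had a gap above 1. The next were Prkcq, a protein kinase C gene (gap 1.39, probes at -1.38 and 0.01), and Olfml3, a secreted matrix protein gene (gap 1.09, probes at 1.08 and -0.0046). In both of these the 2 probes are annotated to different transcripts, whereas those of Ap4e1 share one, as in 754 of the 1129 genes. Ap4e1 was chosen for its fold change, and that of its first probe makes up nearly all of its gap. The rank of the gap is therefore a description and no separate result.

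**Figure D2:**
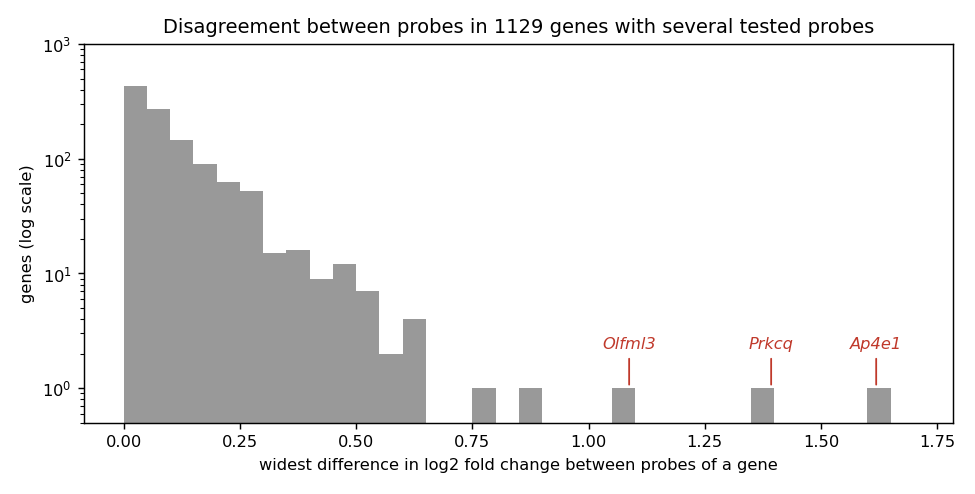
Number of genes (vertical axis, log scale) by the widest difference in log2 fold change between their probes (horizontal axis), for 1129 genes with more than 1 tested probe. Ap4e1 stands at the far right with 1.62, beyond Prkcq (1.39) and Olfml3 (1.09). It was chosen for the fold change that enters this gap.

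The remaining AP-4 subunits did not pass, and their groups overlapped. Ap4b1, the large beta subunit, read 7.26, 7.34 and 7.24 in Chd7 KD, against 7.59, 7.39 and 6.96 in Control. The Control arrays spanned the Chd7 KD arrays on both sides (log2 fold change -0.03, SE 0.133). Ap4m1, the medium subunit that reads tyrosine-based sorting signals, read 7.12, 7.32 and 6.95 in Chd7 KD, against 7.21, 7.37 and 7.20 in Control (log2 fold change -0.13, SE 0.0923). Its groups overlapped, with the lowest of the 6 values on Chd7 KD replicate 3. Between arrays of the same number it was lower in Chd7 KD in all 3 pairs (-0.09, -0.04 and -0.25, SE 0.0577 with the block). Ap4s1, the small subunit, read 9.43, 9.29 and 9.28 in Chd7 KD, against 9.20, 9.23 and 9.28 in Control (log2 fold change 0.09, SE 0.0718). These groups overlapped only at Chd7 KD replicate 3 and Control replicate 3.

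Among AP-3 subunits, Ap3m1, the medium subunit of the ubiquitous complex, was higher in Chd7 KD. Its log2 intensity was 10.16, 10.03 and 10.16 in Chd7 KD, against 9.48, 9.56 and 9.68 in Control, with no overlap. The means were 10.12 ± 0.073 in Chd7 KD and 9.57 ± 0.10 in Control (SD, n = 3 each), a log2 fold change of 0.54 (SE 0.0797), or 1.46-fold. The authors' processed values were 865, 742 and 792 in Chd7 KD and 507, 544 and 628 in Control, a 1.43-fold ratio of means.

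Its neuronal counterpart Ap3m2 read 8.13, 8.11 and 8.12 in Chd7 KD, against 8.33, 7.93 and 7.90 in Control. The Chd7 KD arrays lay close together inside the range of the Control arrays, and the log2 fold change was 0.07 (SE 0.108).

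Ap3b2, the large beta subunit of the neuronal complex, was lower in Chd7 KD. Its log2 intensity was 6.16, 6.16 and 6.23 in Chd7 KD, against 6.55, 6.64 and 6.63 in Control, with every Chd7 KD array below every Control array. The means were 6.18 ± 0.040 in Chd7 KD and 6.61 ± 0.046 in Control (SD, n = 3 each), a log2 fold change of -0.43 (SE 0.0393), which is 74.4% of the Control signal. The size of the fall depended on how the background was handled. The probe was dim, and its raw intensity was 82.2, 77.8 and 86.6 in Chd7 KD and 99.1, 107 and 108 in Control. With a background offset of 16 in place of 50 the log2 fold change was -0.72. In the authors' processed values, at 15, 15 and 17 in Chd7 KD and 32, 36 and 36 in Control, it was -1.10 on the log2(value + 1) scale.

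Ap3b1, the beta subunit of the ubiquitous complex, read 7.42, 7.43 and 7.34 in Chd7 KD, against 7.33, 7.43 and 7.36 in Control (log2 fold change 0.02, SE 0.0557). Its groups overlapped almost fully. The neuronal markers that passed beside Ap3b2 were Dcx (-0.71, SE 0.12, adjusted p = 0.00857 in limma) and both probes of Elavl3 (-0.54 and -0.31, adjusted p = 0.00986 and 0.0431 in limma). Tubb3, Rbfox3, Map2, Snap25, Syt1, Stmn2 and Nefl did not pass and ranged over -0.20 to 0.20 in log2 fold change. With the replicate block Tubb3 and Map2 passed as lower (adjusted p = 0.0337 and 0.0466 in limma) and Syt1 as higher (adjusted p = 0.0185 in limma). The summed raw signal of the 10 neuronal probes was 1387 to 1646 in Chd7 KD and 1631 to 1910 in Control. These sums were not normalized and include the background of each probe (blank spots averaged 58.9 to 61.9), so they do not measure neuron content. The part of neuron content in the Ap3b2 result was not tested.

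The delta and sigma subunits did not pass. Ap3d1, the large delta subunit shared by both forms of AP-3 and mutated in the mocha mouse, read 8.16, 8.07 and 8.19 in Chd7 KD, against 8.40, 8.31 and 8.16 in Control. Only Control replicate 3 lay within the Chd7 KD range (log2 fold change -0.15, SE 0.0758). Ap3s1, a small subunit, read 10.16, 10.29 and 10.32 in Chd7 KD, against 9.60, 9.99 and 10.25 in Control (log2 fold change 0.31, SE 0.146). Control replicate 3 lay within the Chd7 KD range, and without Control replicate 1 the log2 fold change was 0.13. Between arrays of the same number the difference was 0.56, 0.30 and 0.06, higher in Chd7 KD in all 3 pairs, and the SE was 0.0949 with the replicate number as a block. Ap3s2, the other sigma subunit gene, is not a member and read -0.10 (SE 0.0318, adjusted p = 0.0811 in limma), with every Chd7 KD array below every Control array.

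The 3 largest spreads between arrays of a group were those of Ap3s1, Ap4b1 and Ap3m2. Their pooled SD within groups was 0.242, 0.230 and 0.172, above that of 98.0%, 97.6% and 94.5% of all tested probes. In all 3 the Control arrays carried the spread, with SDs in Chd7 KD of 0.086, 0.054 and 0.011 and in Control of 0.33, 0.32 and 0.24. The pooled SD was 0.0894 for the first Ap4e1 probe, 0.0874 for Ap3m1 and 0.0430 for Ap3b2, above that of 77.7%, 76.8% and 45.3% of all tested probes.

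Arrays fell into 2 sets by the slope between scanner gains in the file headers, each with 2 arrays of one group and 1 of the other. Within the set of Chd7 KD replicate 2 with Control replicates 1 and 2, the log2 fold change was 1.63 for the first Ap4e1 probe, 0.51 for Ap3m1 and -0.44 for Ap3b2. Within the set of Chd7 KD replicates 1 and 3 with Control replicate 3 it was 1.70, 0.48 and -0.44. The second Ap4e1 probe read 0.17 and -0.09 in the 2 sets, and Ap3s1 read 0.50 and -0.02. Since the groups do not overlap for these 3 probes, their sign could not differ between the sets. The sign differed between sets for the second Ap4e1 probe and Ap3s1, and also for Ap4b1 (-0.15 and 0.29), Ap4m1 (0.04 and -0.17), Ap3m2 (-0.03 and 0.23) and Ap3d1 (-0.28 and 0.01). The sets part Chd7 KD replicate 1 from Control replicate 1.

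**Figure D3:**
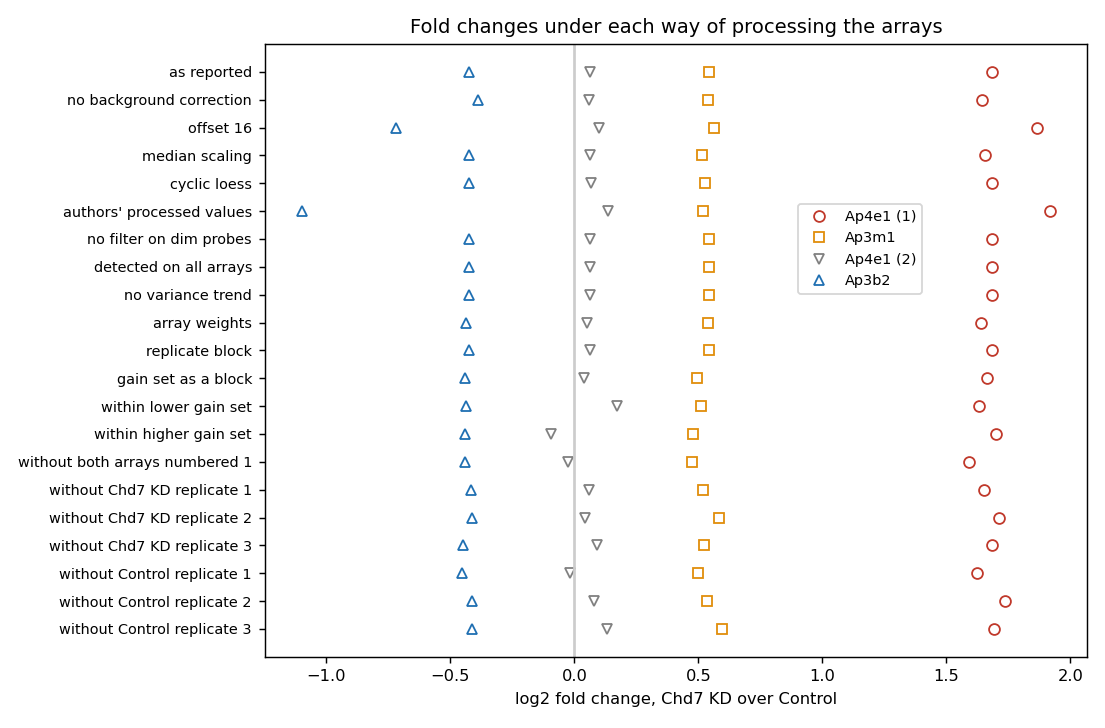
Log2 fold change of Chd7 KD over Control (horizontal axis) for both Ap4e1 probes, Ap3m1 and Ap3b2 under each way of processing or each subset of arrays (vertical axis). The first Ap4e1 probe stays between 1.59 and 1.92, Ap3m1 stays above 0 and Ap3b2 below 0, while the second Ap4e1 probe lies near 0.

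None of the tested genes next to Ap4e1 on chromosome 2 was higher in Chd7 KD. The 3 nearest genes with a probe on one side were Sppl2a, an intramembrane protease gene (log2 fold change -0.0014, SE 0.071, adjusted p = 0.994 in limma), Trpm7, an ion channel and kinase gene (-0.02, adjusted p = 0.912 in limma), and Usp50, which was not above the detection limit on any array. On the other side Blvra, which encodes biliverdin reductase, read -0.04 (adjusted p = 0.868 in limma), and Ncaph, a condensin subunit gene, was lower in Chd7 KD (-0.63, adjusted p = 0.00225 in limma). Itpripl1 was above the limit on 1 array of each group and was not tested. Ncaph read 8.62, 8.65 and 8.46 in Chd7 KD, against 9.13, 9.22 and 9.25 in Control, so it lay on the opposite side from Ap4e1 on every array.

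**Figure D4:**
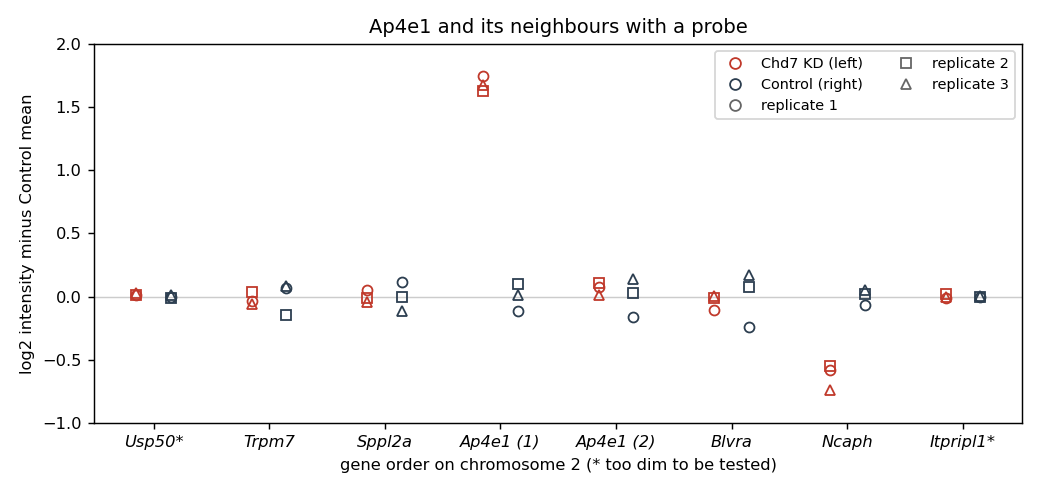
Log2 intensity less the Control mean of each probe (vertical axis) for Ap4e1 and the 3 genes with a probe on either side of it, in gene order (horizontal axis), for Chd7 KD (red, left) and Control (dark, right) arrays. The first Ap4e1 probe is at 1.68 on average in Chd7 KD, Ncaph is at -0.63, and the other tested probes lie near 0.

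By Pearson correlation over the 6 arrays, the probes most like the first Ap4e1 probe were those of Tpd52l1 (r = 0.9994), Prss23 (0.9987), Srprb (0.9981), Ndufa13 (0.9961) and Lce1f (0.9959), out of 18590 compared. The 6 points fall in 2 groups of 3, and 370 probes had r above 0.95. Their log2 fold changes were far smaller, at 0.49, 0.58, 0.24, 0.57 and 0.20.

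The 73 related genes, in 10 lists of other adaptors, partners, cargo and coats, were read by 80 tested probes. These lists were also drawn up with earlier results of these data known. Of the 80 probes 2 were higher in Chd7 KD, 2 were lower and 76 did not pass (5% called, against 8.85% of all tested probes), with a median log2 fold change of -0.0037. With the replicate number as a block 3 were higher and 6 lower, the additional ones being Lamp1 (higher) and Cltb, Vamp7, Bloc1s3 and the other Copg2 probe (lower).

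Among 10 genes of AP-4 partners and cargo, with 10 probes, 1 rose and 1 fell (20% called, against 8.85% of all tested probes). In limma 5 of the 10 had an unadjusted p below 0.05, against 4947 of all 20957 tested probes. The groups did not overlap for 6, with Chd7 KD above for 3 and below for 3, against 28.9% of all tested probes. Serinc3, a multipass membrane protein that AP-4 sorts, read 11.20, 11.03 and 11.05 in Chd7 KD, against 10.37, 10.61 and 10.43 in Control. Every Chd7 KD array was above every Control array, at a log2 fold change of 0.62 (SE of 0.0877, adjusted p = 0.0043 in limma). It was 0.54 within one gain set and 0.69 within the other. Its relative Serinc1, also AP-4 cargo, read 0.21 (adjusted p = 0.127 in limma) with the groups apart. Hook2, a dynein adaptor gene, fell by 0.16 on the log2 scale (SE 0.0381, adjusted p = 0.034 in limma), a call lost whichever 1 of the 6 arrays was left out (up to 0.141 over the alternatives). Aktip, a partner of the HOOK proteins, read -0.23 (adjusted p = 0.0727 in limma).

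No probe of the other adaptor complexes passed in limma. None of 8 AP-1, 5 AP-2 and 8 AP-5 and partner probes did, and none of these had an unadjusted p below 0.05. Log2 fold changes were -0.16 to 0.07 for AP-1, which sorts with clathrin between the trans-Golgi network and endosomes, and -0.06 to 0.10 for AP-2, the clathrin adaptor of the plasma membrane. They were -0.14 to 0.12 for AP-5, which acts on late endosomes, together with its partners. The -0.14 was that of the partner gene Spg11, and the AP-5 subunits themselves ranged from -0.04 to 0.12. Ap1m1 (-0.16), Ap2a1 (0.10) and Ap5s1 (0.12) had the smallest p of each list (adjusted p = 0.217, 0.435 and 0.225 in limma). The median log2 fold changes of the 3 lists were -0.0037, -0.04 and -0.0048.

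Partners and cargo of AP-3 did not pass in limma without the replicate block either. With the block Bloc1s3 (-0.19, adjusted p = 0.0486 in limma) passed as lower, and Lamp1 and Vamp7 also passed (below). Without it, none of 14 probes of the BLOC complexes, which make lysosome-related organelles, passed. In limma 5 of the 14 had an unadjusted p below 0.05, against 4947 of all 20957 tested probes. Dtnbp1, the dysbindin gene, read -0.22 and -0.17 on its 2 probes (adjusted p = 0.0764 and 0.121 in limma). Nor did any of 6 probes of the HOPS tethering complex pass (1 with an unadjusted p below 0.05), where Vps41 read -0.20 (adjusted p = 0.109 in limma). Of 10 probes of AP-3 cargo and regulators none passed without the block (3 had an unadjusted p below 0.05). Among these Lamp1, a lysosomal membrane glycoprotein gene, read 0.30 (adjusted p = 0.0545 in limma, and 0.0148 once the replicate number was a block). Vamp7, a SNARE gene whose product AP-3 sorts, read -0.38 (adjusted p = 0.142 in limma, and 0.0124 with the replicate block).

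Of 7 clathrin and GGA probes 1 rose (14.3% called, against 8.85% of all tested probes). In limma 2 of the 7 had an unadjusted p below 0.05, against 4947 of all 20957 tested probes. Gga2, a monomeric Golgi adaptor gene, read 0.29 (SE 0.0635, adjusted p = 0.0229 in limma). This call was lost without Chd7 KD replicates 1 or 3 or Control replicates 1 or 3, without both arrays numbered 1, with gain set as a block and in the authors' processed values (adjusted p up to 0.116). Of 11 probes of COPI, the coat of Golgi vesicles whose subunits are related to those of adaptors, 1 fell (9.09% called, against the same 8.85%). Nothing about these 2 lists is read from their counts. In limma 3 of the 11 had an unadjusted p below 0.05. Copg2 read -0.20 on both of its probes (adjusted p = 0.0485 and 0.0615 in limma). Its 1 call was lost whichever 1 of the 6 arrays was left out.

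**Figure D5:**
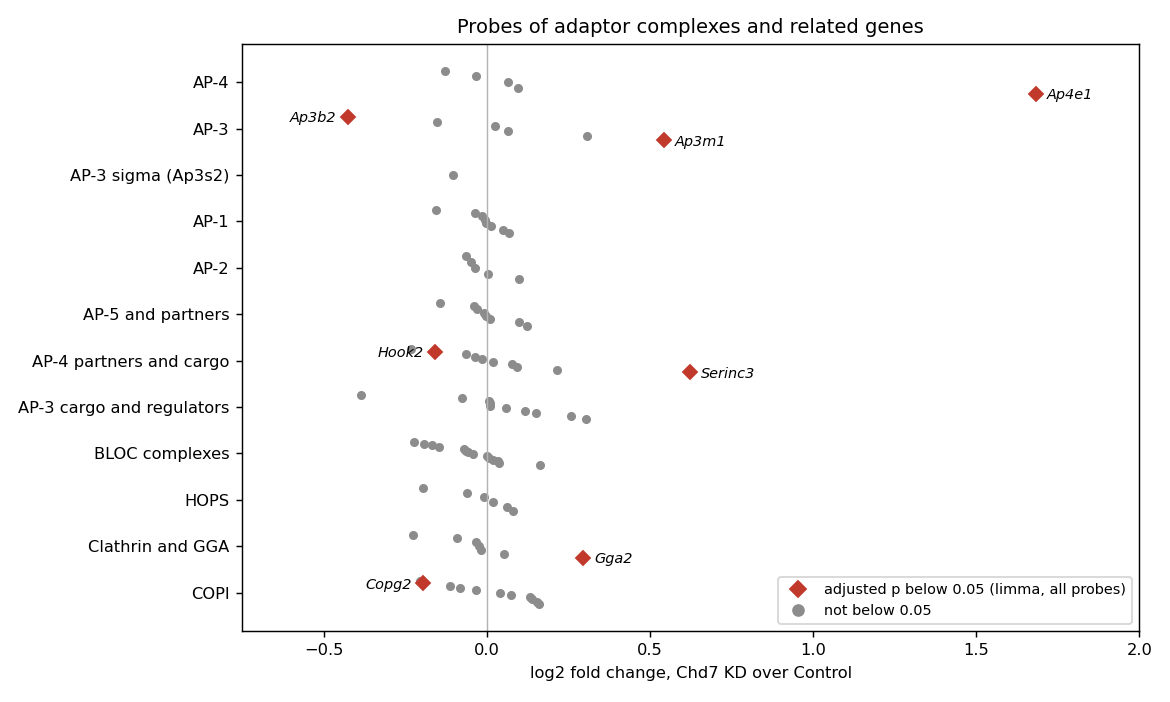
Log2 fold change of Chd7 KD over Control (horizontal axis) for each probe of the AP-4 and AP-3 members and the related lists (vertical axis). Red diamonds passed an adjusted p of 0.05 in limma over all tested probes. The first Ap4e1 probe lies at 1.68, and the related probes lie between -0.38 and 0.62.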

How the data were processed

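RNeasy-purified total RNA of 6 samples was converted to amino allyl aRNA and labelled with Cy5, per the labels' protocols. The deposited intensity is a spot median at 635 nm, combined from 3 gains by a least-squares line, per the file headers. The authors also deposited processed intensity values, whole numbers with a median of 25 on each array, and no source used here says how they were made. In these 1717 to 2016 of 23473 probes had no value per array. The values present followed a straight line in the raw spot intensity on each array, with largest residuals of 1.71 to 7.40. They thus rescale the same readings and are no separate measurement.

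The normexp correction (offset of 50, no local background) was fitted to all 27456 spots, and values were quantile normalized, put on the log2 scale and averaged per probe in limma 3.58.1 (R 4.3.3, statmod 1.5.0). Tested probes had raw signal above the blank-spot mean plus 2 SD on 3 or more of 6 arrays, and 1 probe with a bad mark at all gains was dropped. Every probe was kept apart, and lmFit and eBayes with a trend compared Chd7 KD with Control, two-sided, with Benjamini-Hochberg adjustment over 20957 probes of 17390 genes. Gene symbols came from the platform annotation, and all 10 members matched RefSeq by Entrez ID. Levels of different probes were not compared. The number of arrays limits the precision. Figures were drawn with matplotlib 3.10.9.

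The members and lists were chosen with earlier results of these data known. Named genes were all members, up to 3 of each related list with the smallest p, the 3 neighbours on each side of Ap4e1, the 5 probes most like it and the 3 widest gaps between probes. Further genes were named after their values were seen.

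Both groups carry numbers 1 to 3 in the labels. Deviations from group means correlated at 0.37, 0.39 and 0.22 between arrays of the same number, and all 6 arrays correlated best with their own number. Such deviations cancel within a group of 3, so some matching of arrays had to correlate positively. Arrays numbered 2 share a gain set, as do those numbered 3, so scanner gain and pairing cannot be told apart there. The numbers were taken to pair the samples from the data and not from the labels, so the pairing is an assumption. A fit with the number as a block was run beside the fit without it. Alternatives were other background, normalization, filter, probe and variance settings, the authors' values, the gain sets, a threshold of 0.1 and leaving arrays out. In simulated data for Chd7 KD against Control 200 of 20957 probes were changed. Of these, 79% of 1.5-fold and 95% of 2-fold changes were recovered, with 9 false calls. The changes were put into brighter probes only, after normalization, with independent noise and no pairing of arrays. Ap3b2 and the second Ap4e1 probe were dimmer than those probes, so the recovered shares do not cover them.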

Additional observations from a re-analysis of the deposited data

How the results depend on the processing

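Ap4e1 (first probe) and Ap3m1 higher and Ap3b2 lower in Chd7 KD was the outcome under every alternative outside the gain sets. Within the gain sets no member call is read, whether kept or lost. There, with 1 array against 2, only the log2 fold changes are given: 1.63 and 1.70, 0.51 and 0.48, and -0.44 in both sets. Every alternative reused arrays from which Ap4e1 had been chosen. That these calls recurred is therefore a description of the processing and no separate support. Leaving out 1 array gave log2 fold changes of 1.62 to 1.73, 0.50 to 0.60 and -0.45 to -0.41. Beyond the calls given above, the replicate block changed none among the members, the 80 related probes and 52 further probes (Chd7, markers, neighbours, probes most like Ap4e1 and those of Prkcq and Olfml3). Other members did not pass under any alternative. Their sign turned without 1 array for the second Ap4e1 probe (-0.02 to 0.13), Ap4b1 (-0.21 to 0.10) and Ap3m2 (-0.01 to 0.21).

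Over all probes, 848 were higher and 1007 lower in Chd7 KD. The count of higher probes was 326 in the authors' values and 1413 with the replicate block. Higher and lower counts were 13 and 7 within the set of Chd7 KD replicate 2 and Control replicates 1 and 2, 10 and 31 within the other set, 384 and 441 without both arrays numbered 1, and 1411 and 1598 at an adjusted threshold of 0.1. Leaving out 1 array gave 370 to 729 higher and 428 to 859 lower. Both counts were lowest without Chd7 KD replicate 1. For the related genes, 1 was higher in the authors' values, without both arrays numbered 1 and with gain set as a block, and leaving out 1 array gave 1 to 2. The lower count was 1 with cyclic loess, in the authors' values and with 1 probe per gene (Hook2 each time), and without both arrays numbered 1 (Vamp7). It was 7 without the variance trend or at a threshold of 0.1, 6 with the replicate block and 0 with gain set as a block (11 at an unadjusted p below 0.05). Leaving out 1 array gave 0 to 1 lower, the 1 being Vamp7 without Control replicate 1. Within the gain sets 0 were higher and 0 lower (1 and 0, and 7 and 7, at an unadjusted p below 0.05 in limma). The causes were not tested. Signal over background limits the size given for Ap3b2, which was -0.72 with an offset of 16.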

Other observations

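Control replicate 1 was the lowest or the highest of the 3 Control arrays for 10 of the 11 member probes, Control replicate 2 for 4 and Control replicate 3 for 8. Over all tested probes the shares were 71.2%, 59.1% and 69.7%. This was tallied after the values were known and was not tested.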
